A study of Mus musculus with 38 samples.

Results

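BACHD mice carry the full-length human mutant huntingtin (mHTT) gene with 97 CAG repeats on a bacterial artificial chromosome and express it in all tissues. The hypothalamus of 10-month-old BACHD mice, an age that the study places late in the disease, was compared with that of wild-type (WT) littermates of the same age. The comparison holds 8 of the 38 arrays of the series: the 5 labelled BACHD and the 3 labelled WT at the older age. All mice were untreated females of the FVB/N strain, and each array was made from the dissected hypothalamus of 1 mouse. The platform was the Affymetrix Mouse Gene ST array, and values are log2 intensities after Robust Multi-Array Averaging (RMA), so that a difference of 1 is a doubling. Each array holds 34760 probe sets, of which 21640 carry 1 gene symbol. A gene was represented by its single-symbol probe set with the highest mean over these 8 arrays, which gave 19937 genes. Differences are BACHD minus WT with the standard error (SE) of limma, and values per array are given in the order of replicates 1 to 5 of BACHD and 1 to 3 of WT.

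Huntingtin is a large scaffold protein with roles in vesicle transport and transcription, and an expanded CAG tract in its gene causes Huntington's disease (HD). The hypothalamus governs feeding, sleep, body temperature, daily rhythms and reproduction through small groups of neurons, each known by the peptide or amine that it releases. Orexin and melanin-concentrating hormone neurons of the lateral hypothalamus act on arousal and feeding, and kisspeptin and neurokinin B neurons act on the release of gonadotropin-releasing hormone (GnRH).

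The mouse gene *Htt* read 10.19, 10.26, 10.21, 10.23 and 10.20 in BACHD and 10.21, 10.14 and 9.99 in WT. The groups overlapped, with a difference of 0.10 (SE 0.0545, exact permutation p = 0.0714). Whether this probe set also binds the human transgene RNA is not given in the sources used here, so it does not check the genotype labels. The tissue label fits the hypothalamic markers: *Hcrt*, *Pmch* and *Sst*, which encode orexin, melanin-concentrating hormone and somatostatin, had mean levels between 12.33 and 12.84 in both groups, against a median of 7.3 over all probe sets. The 19 measured hypothalamic markers averaged 9.36 to 9.67 per array in BACHD and 9.23 to 9.64 in WT.

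Several arrays stood apart in genes of single hypothalamic nuclei or neighbouring tissue. *Fezf1* and *Nr0b1*, transcription factors of the ventromedial nucleus, read 7.58 and 5.82 in WT replicate 1, whereas the other 7 arrays ranged from 9.38 to 10.08 and from 7.72 to 8.02. *Avp*, which encodes vasopressin, read 12.02 in BACHD replicate 1 and 9.73 to 10.53 elsewhere. The pituitary hormone gene *Prl* read 11.07 in BACHD replicate 2, 8.62 in BACHD replicate 5 and 10.32 in WT replicate 3, and 5.26 to 5.76 in the other 5 arrays. Markers of thalamic neurons were highest in BACHD replicate 3 and lowest in WT replicate 2. Array medians ran from 7.284 to 7.317 and correlations between arrays from 0.9923 to 0.9961. These arrays were kept.

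**Figure D1:**
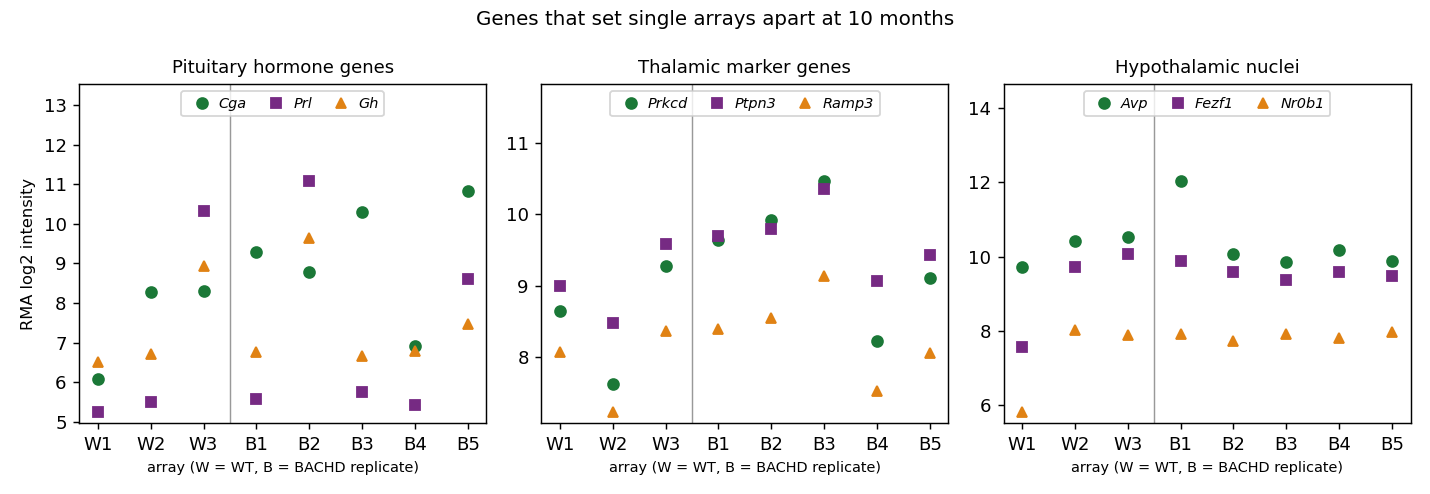
RMA log2 intensity (y axis) of 9 genes in each of the 8 arrays (x axis, W for WT and B for BACHD replicates), for pituitary hormones, thalamic markers and genes of single hypothalamic nuclei. *Prl* reads above 8 in B2, B5 and W3 only, *Fezf1* and *Nr0b1* are lowest in W1, and *Avp* is highest in B1.

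No probe set passed an adjusted p of 0.05 in limma (0 of 34760, 0.00%), and the smallest adjusted p was 0.322. At an unadjusted p under 0.05 there were 1583 probe sets (4.55%) and 786 genes (3.94%), of which 476 were higher in BACHD (2.39%) and 310 lower (1.55%). Groups of 5 and 3 mice did not overlap in 436 genes that were higher (2.19%) and 323 that were lower (1.62%). The median difference over all genes was 0.00859, and 55.7% of genes lay above 0. Only 3 genes were higher by more than 1 log2 unit and none was lower by as much, while 15 were higher and 3 lower by more than 0.5. The half-width of the 95% interval of a difference was 0.164 at the median, so that most differences below about this size could not be told from 0 with these numbers of mice. Genes are therefore described by their values. Without 1 array at a time, 306 genes (without BACHD replicate 2, 1.53%) to 749 genes (without WT replicate 3, 3.76%) were higher at this limit and 221 to 411 lower (1.11% to 2.06%). Counts of a few genes in the lists below moved with single arrays too. Every gene named has an adjusted p of 0.981 or 0.997, and the smallest p that an exact permutation of 8 arrays can give is 0.0179. An exact p is two-sided and was not adjusted over genes.

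Among genes at or above the median level, those with the smallest p and higher values in BACHD began with *Angpt1*, *Grp* and *C4b*, described below, and *Plscr2*. The latter encodes a phospholipid scramblase and was higher by 0.31 (SE 0.0528). A second scramblase gene, *Plscr4*, was higher by 0.27 (SE 0.0561), and both genes separated the groups. *Nudt4*, which encodes a phosphatase of inositol pyrophosphates, read 11.31 to 11.42 in BACHD and 11.12 to 11.16 in WT (0.24, SE 0.0415). *Acy3*, an aminoacylase gene, read 8.76 to 9.12 against 8.45 to 8.47 (0.44, SE 0.087). The urea transporter gene *Slc14a1* (0.24, SE 0.0515) and the cation channel gene *Trpc1* (0.19, SE 0.0404) had small differences with tight replicates. At lower levels, *Spx*, which encodes the peptide spexin, read 6.88, 6.86, 6.87, 6.78 and 6.99 against 6.61, 6.19 and 6.45 (0.46, SE 0.0931), and *Ly6g*, known from neutrophils, read 5.11 to 5.25 against 4.49 to 4.94 (0.48, SE 0.093). All 8 of these genes had groups that did not overlap (2.19% of all genes on the higher side). They were chosen by a small p on the same arrays, so the separation adds no support.

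Lower in BACHD were *Tacr3* and *Hcrt*, described below, and genes of several other functions. *Car2*, which encodes a carbonic anhydrase of glia, read 11.52 to 11.70 in BACHD and 11.79 to 11.95 in WT (-0.29, SE 0.0574). *Fabp7*, the brain fatty acid binding protein of astrocytes and tanycytes, read 12.35, 12.10, 12.19, 12.26 and 12.23 against 12.62, 12.36 and 12.76 (-0.35, SE 0.093). *Ecm1*, an extracellular matrix gene (-0.32, SE 0.0786), *Msantd1* (-0.39, SE 0.093), and the myo-inositol transporter gene *Slc5a11* (-0.22, SE 0.0596) were lower as well. Smaller differences were seen for *Mrps10* of the mitochondrial ribosome (-0.20, SE 0.0443), *Eef1akmt1*, a methyltransferase of elongation factor 1A (-0.19, SE 0.0505), and *Gm10874* (-0.19, SE 0.0463). The groups did not overlap in any of these genes (1.62% of all genes on the lower side), which were also chosen by a small p. Among all genes regardless of level, the smallest p also went to *Olfr99*, *Zfp352*, *Olfr813*, *Gm648*, *Olfr516* and *Gm10229*. Their differences ran from -0.34 to -0.22 at levels between 3.47 and 5.76, all under the median level of 7.3. The *Olfr* genes among them encode odorant receptors of the nose, a large family of related sequences.

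Several of the genes with the greatest differences varied widely between mice. *Fndc3c1*, a fibronectin domain gene, read 6.47, 6.29, 6.74, 5.36 and 7.17 in BACHD and 4.87, 5.06 and 5.46 in WT (1.27, SE 0.361, exact p = 0.0714), with BACHD replicate 4 inside the WT range. *Abhd12b* (0.94, SE 0.443) and *Ces1d*, a carboxylesterase gene (0.64, SE 0.287), overlapped between the groups. Within each group, *Abhd12b* ranked the arrays in the order of the thalamic marker *Prkcd*, described below. *Fndc3c1* ranked them in the order of the pituitary hormone gene *Cga*, and *Ces1d* did so within BACHD but not within WT. The part of tissue content in these 3 genes was not tested. On the lower side, *A530064D06Rik* read 4.22 to 4.75 against 4.77 to 5.22 (-0.52, SE 0.138). *Serpina1c*, of the alpha-1-antitrypsin family, differed by -0.48 (SE 0.32), with WT replicate 1 at 5.33 and the other 7 arrays at 3.64 to 4.61. *1700031F05Rik* (-0.47, SE 0.199) overlapped, while *Olfr119* (-0.37, SE 0.127) did not, at levels of 2.65 to 3.52.

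Several genes of antigen presentation by MHC class II molecules were higher in BACHD. These molecules display peptides of engulfed proteins to T cells, and in the brain they are carried mainly by microglia and border macrophages. *Cd74*, the invariant chain that guides class II molecules to the peptide loading compartment, read 8.13, 8.17, 7.77, 7.60 and 8.59 in BACHD and 6.67, 7.13 and 7.36 in WT. Every BACHD mouse lay above every WT mouse, with a difference of 1.0 (SE 0.236, exact p = 0.0179). The class II chain *H2-Aa* read 7.47, 7.62, 7.17, 6.93 and 7.96 against 6.34, 6.95 and 6.81 (0.73, SE 0.237, exact p = 0.0536), where only BACHD replicate 4 fell below the highest WT mouse. Its partner chain *H2-Ab1* read 6.47, 6.62, 6.47, 6.11 and 6.75 against 5.99, 6.19 and 6.27 (0.33, SE 0.137, exact p = 0.0893), with the same array inside the WT range.

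These 3 were the members with an unadjusted limma p under 0.05 among 11 measured members of the class II list (2.39% of all genes). The remaining 8 differed by -0.04 to 0.11. They were the chain genes *H2-Eb1* (0.04, SE 0.0581) and *H2-Eb2* (-0.04, SE 0.111), and the further class II genes *H2-DMa* (0.07, SE 0.0628), *H2-Oa* (0.10, SE 0.0921) and *H2-Ob* (0.02, SE 0.0502). The others were the class II transactivator *Ciita* (0.11, SE 0.0712), and the lysosomal enzymes *Ctss* (0.11, SE 0.0634) and *Ifi30* (-0.04, SE 0.0541). The transactivator read 6.34 to 6.52 in BACHD and 6.18 to 6.46 in WT, so that the groups overlapped. The list mean was 7.45, 7.49, 7.38, 7.23 and 7.51 in BACHD and 7.08, 7.19 and 7.30 in WT, with BACHD replicate 4 the lowest of its group and inside the WT range. Without WT replicate 1, the lowest WT array, 1 member had a p under 0.05 (2.89% of all genes), and without WT replicate 3 there were 5 (3.76%). For MHC class I presentation, 0 of 17 measured members passed the same limit (3.94% of all genes). The smallest p belonged to *H2-M3* (0.13, SE 0.0646) and to *Psmb8*, an immunoproteasome subunit (0.11, SE 0.0573). Of the 17, 12 lay above 0 (55.7% of all genes did). Without WT replicate 3 there were 2 higher members (3.76% of all genes), and without WT replicate 1 there were 1 higher and 1 lower (2.89% and 1.70%). The class I genes *H2-K1*, *H2-D1*, *H2-T23*, *H2-T22*, *H2-Q6*, *H2-Q7* and *H2-T3* had no single-symbol probe set. They are not among the 17, so class I itself was measured only in part.

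Complement tags cells and debris for removal. *C4b*, which encodes complement component 4, read 10.02, 10.06, 9.86, 9.73 and 10.00 in BACHD and 9.26, 9.10 and 9.52 in WT, and its level was about 1.56 times that of WT (0.64, SE 0.109, exact p = 0.0179). *Serping1*, the inhibitor of the first complement component, read 8.56, 8.81, 8.61, 8.56 and 8.92 against 8.48, 8.34 and 8.54 (0.24, SE 0.0963, exact p = 0.0893). Both separated the groups, *Serping1* by a narrow margin. They were 2 of 17 measured complement genes with a p under 0.05 and higher values (2.39% of all genes), and none was lower (1.55%). In all, 9 of the 17 lay above 0 (55.7% of all genes did), with a list median of 0.00455 against 0.00859 for all genes. That median ran from -0.0446 to 0.0411 without 1 array, lowest without BACHD replicate 1 and highest without WT replicate 1. Without BACHD replicate 2 or 5 or WT replicate 1 or 2 there was 1 higher complement gene, and without WT replicate 2 there were 3 lower ones (2.06% of all genes).

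Type I interferon makes cells express antiviral genes through the factor complex ISGF3, which binds an interferon-stimulated response element (ISRE). Of 27 measured genes of this response, 7 had a p under 0.05 and all 7 were higher in BACHD (2.39% of all genes were). In all, 23 of the 27 lay above 0 (55.7% of all genes did), with a median of 0.09. The list mean ran from 7.11 to 7.27 in BACHD and from 7.02 to 7.13 in WT. For 6 of these 7 genes there was a promoter entry (RefSeq, build GRCm38.p6). The 250 bases before the first start listed for each of the 6 were compared on both strands. Runs of at least 12 bases shared by any of them were found only in *Ifit3* (chr19:34583279-34583528, plus strand) and *Ifit1* (chr19:34640639-34640888, plus strand), which belong to 1 gene family and encode tetratricopeptide proteins that bind viral RNA. Both promoters are printed with the shared runs in capitals.
Ifit3: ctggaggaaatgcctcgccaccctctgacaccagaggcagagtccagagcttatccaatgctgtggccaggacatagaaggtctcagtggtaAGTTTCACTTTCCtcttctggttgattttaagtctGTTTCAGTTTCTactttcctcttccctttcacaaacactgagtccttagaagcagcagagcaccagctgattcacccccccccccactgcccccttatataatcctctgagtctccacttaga
Ifit1: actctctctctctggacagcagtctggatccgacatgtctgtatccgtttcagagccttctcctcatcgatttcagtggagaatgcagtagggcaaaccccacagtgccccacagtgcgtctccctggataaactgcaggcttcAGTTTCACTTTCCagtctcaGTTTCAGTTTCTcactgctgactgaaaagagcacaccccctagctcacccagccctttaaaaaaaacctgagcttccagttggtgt

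The 2 shared runs are AGTTTCACTTTCC of 13 bases and GTTTCAGTTTCT of 12 bases. They begin 158 and 123 bases before the listed start in *Ifit3* and 106 and 86 bases before it in *Ifit1*. The *Ifit3* window lies inside the annotated gene, which begins at base 34583119 of the same chromosome. On either strand the first run occurs in 5 of 27025 promoters of all genes (0.0185%) and the second in 10 (0.037%). Of the 19 interferon list members with a promoter entry, *Ifit3* and *Ifit1* are the only ones with either run. The runs were picked because these related genes share them, so the shares do not measure enrichment in the interferon list.

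*Oasl2*, an oligoadenylate synthetase-like gene, read 8.43, 8.39, 8.38, 8.16 and 8.48 in BACHD and 7.80, 7.88 and 8.07 in WT (0.45, SE 0.0863, exact p = 0.0179). *Rtp4*, an interferon-induced transporter protein gene, read 7.21, 7.16, 7.34, 7.09 and 7.38 against 6.90, 6.90 and 6.80 (0.37, SE 0.0737, exact p = 0.0179). All BACHD mice lay above all WT mice for both genes. *Ifit3* read 7.84, 8.08, 8.21, 7.89 and 8.00 against 7.41, 7.67 and 7.83 (0.37, SE 0.112, exact p = 0.0179), the groups being barely separate, and probes of *Ifit3* may also read its near-identical neighbour *Ifit3b*. The RNA sensor gene *Ifih1* (0.19, SE 0.0457) and *Xaf1*, a proapoptotic interferon target (0.27, SE 0.0658), were higher without overlap. *Ifit1* read 6.49, 6.75, 6.90, 6.54 and 6.90 against 6.41, 6.28 and 6.50 (0.32, SE 0.112), and *Rsad2* was higher by 0.17 (SE 0.0703). Each of these last 2 genes had 1 BACHD mouse within the WT range. Leaving out 1 array at a time gave 5 to 9 interferon genes under the threshold and none lower, against 1.53% to 3.76% of all genes.

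Reactive astrocytes increase acute phase and cytokine receptor genes after injury. *Lcn2*, the secreted iron carrier lipocalin 2, read 7.12, 7.97, 7.57, 6.80 and 7.04 in BACHD and 6.27, 6.26 and 6.37 in WT. All BACHD mice lay above the WT mice, with a wider spread in BACHD (1.0, SE 0.241, exact p = 0.0357). *Osmr*, the receptor for oncostatin M, read 7.38, 7.75, 7.56, 7.17 and 7.74 against 7.06, 7.0 and 6.96 (0.52, SE 0.131, exact p = 0.0357), again without overlap. *Serpina3n*, a serine protease inhibitor, read 12.78, 12.78, 12.66, 12.77 and 12.80 against 12.48, 12.57 and 12.65, so that BACHD replicate 3 lay just above the highest WT mouse. The copper carrier gene *Cp* was higher by 0.24 (SE 0.0714), and *Ptx3*, the long pentraxin, was lower (-0.13, SE 0.0504). They made 4 higher and 1 lower of 19 measured genes in the list (2.39% and 1.55% of all genes), and 7 were higher without BACHD replicate 4 or without WT replicate 3 (3.07% and 3.76%). *Gfap*, the intermediate filament of astrocytes, read 10.94 to 11.30 in BACHD and 10.78 to 11.27 in WT (0.09, SE 0.12, exact p = 0.536). No gene of 13 general astrocyte markers had a p under 0.05 (3.94% of all genes), the smallest p belonging to *Mlc1* (0.08, SE 0.0397) and *S100b* (0.15, SE 0.0861). Of the 13, 11 lay above 0 (55.7% of all genes did). Without WT replicate 1 or 2 there was 1 higher gene (2.89% and 2.05% of all genes).

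**Figure D2:**
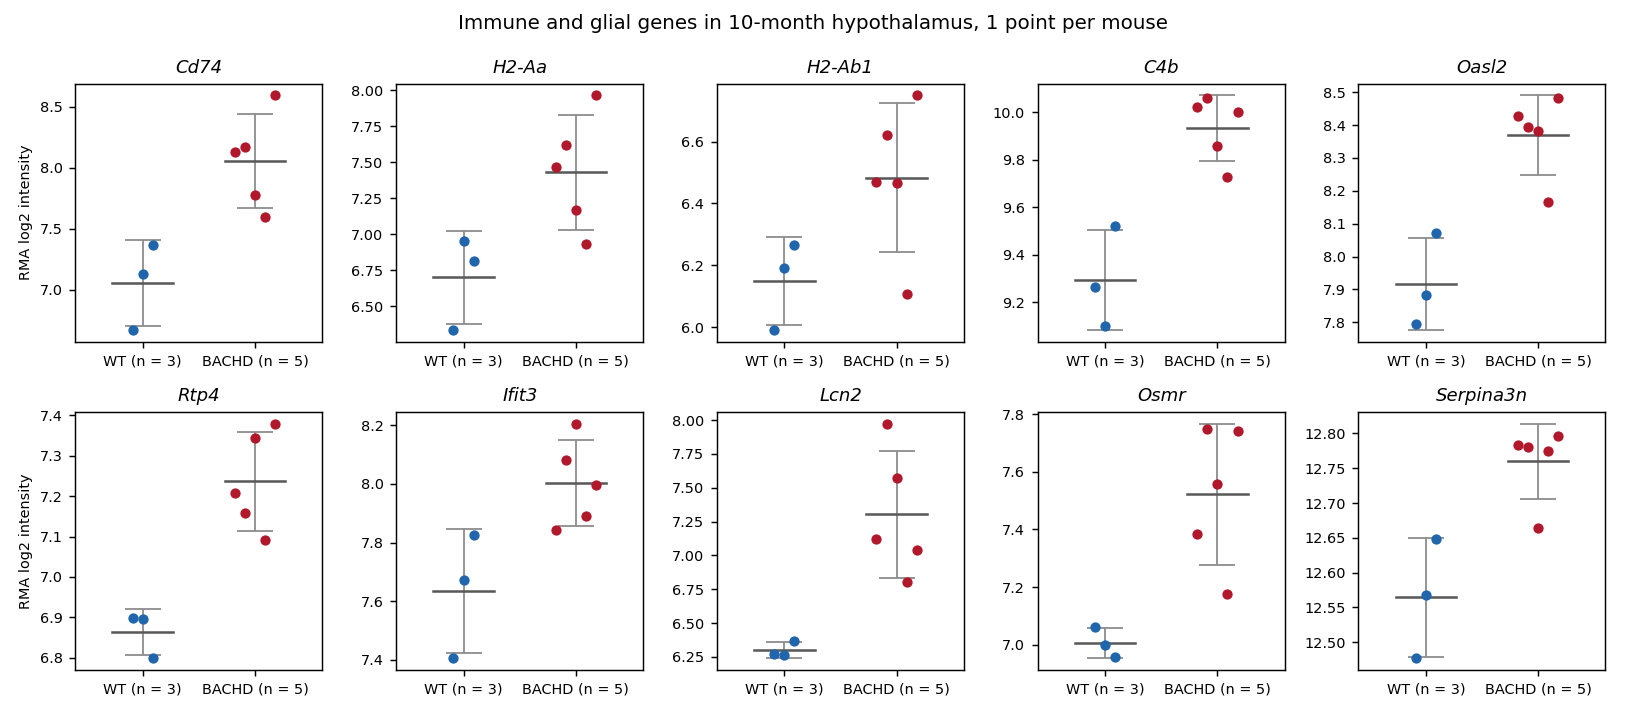
RMA log2 intensity (y axis, a separate scale per gene) of 10 immune and glial genes in WT and BACHD at 10 months, with 1 point per mouse, the group mean as a line and the SD as bars. Groups are separate for *Cd74*, *C4b*, *Oasl2*, *Rtp4*, *Ifit3*, *Lcn2*, *Osmr* and *Serpina3n* and overlap for *H2-Aa* and *H2-Ab1*.

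General microglial markers had 0 of 16 measured members with a p under 0.05 (3.94% of all genes), and 12 lay above 0 (55.7% of all genes did). Without BACHD replicate 4 there were 2 higher members and without WT replicate 1 there was 1 (3.07% and 2.89% of all genes). *Cx3cr1*, the fractalkine receptor, read 9.29 to 9.52 in BACHD and 9.33 to 9.39 in WT (0.03, SE 0.0576), and *Tmem119*, which sets microglia apart from other macrophages, read 8.79 to 8.94 against 8.82 to 8.98 (-0.04, SE 0.0598). The smallest p in that list belonged to *Siglech* (0.11, SE 0.0534) and *Itgam* (0.11, SE 0.0587). The list mean was 8.56 to 8.67 in BACHD and 8.51 to 8.65 in WT. Of 19 genes of disease-associated microglia, *Lpl*, a lipoprotein lipase (0.26, SE 0.0861), and *Axl*, a receptor for dying cells (0.09, SE 0.0406), were higher with a p under 0.05 (2.39% of all genes). Without WT replicate 2 none was higher and 1 was lower (2.05% and 2.06% of all genes), and without BACHD replicate 1, 2, 4 or 5 or WT replicate 3 there was 1 higher gene. In bulk tissue, fewer cells of a type and less RNA per cell cannot be told apart.

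Of 25 genes of T cells, B cells and chemokines, 3 were higher and 1 lower at the same limit (2.39% and 1.55% of all genes). *Cxcl13*, which attracts B cells, read 6.33, 6.66, 6.59, 6.29 and 6.78 in BACHD and 6.27, 5.95 and 6.18 in WT (0.39, SE 0.129, exact p = 0.0357), with barely separate groups. *Mzb1* of antibody-secreting cells (0.17, SE 0.0722) and the T cell gene *Cd8b1* (0.20, SE 0.0821) were higher with overlap, and the chemokine gene *Ccl4* was lower (-0.15, SE 0.0655). Without BACHD replicate 1 or 3, or WT replicate 1 or 2, 1 gene of the list was higher at that limit (1.84%, 1.97%, 2.89% and 2.05% of all genes). Among 26 genes of tumor necrosis factor (TNF) signalling, the receptor gene *Tnfrsf1a* (0.13, SE 0.0496) and the NF-kappaB cofactor gene *Bcl3* (0.23, SE 0.0928) were higher (2.39% of all genes). Without BACHD replicate 5 no TNF gene had a p under 0.05, and without BACHD replicate 1, 2 or 3 or WT replicate 2 there was 1. BACHD replicate 4 had the lowest value of its group in *Cd74*, *H2-Aa*, *H2-Ab1*, *C4b*, *Oasl2*, *Rtp4*, *Lcn2*, *Osmr*, *Cxcl13*, *Cd8b1*, *Ccl4* and *Bcl3*.

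Several neuropeptide and receptor genes were lower in BACHD, among them *Hcrt* and *Pmch* of the lateral hypothalamus. *Hcrt*, which encodes orexin, read 12.57, 12.50, 12.63, 12.63 and 12.49 in BACHD and 12.99, 12.72 and 12.82 in WT (-0.28, SE 0.0684, exact p = 0.0179). Its level was 0.823 times that of WT, and all BACHD mice lay below all WT mice. The receptor genes *Hcrtr1* (-0.18, SE 0.0622) and *Hcrtr2* (-0.26, SE 0.0874) were lower too, without overlap. *Pmch*, which encodes melanin-concentrating hormone, read 12.34, 12.41, 12.26, 12.45 and 12.34 against 12.55, 12.48 and 12.58 (-0.18, SE 0.0526, exact p = 0.0179). *Npw*, the gene of neuropeptide W, was separate as well, at 7.33 to 7.45 against 7.53 to 7.84 (-0.24, SE 0.0723). *Hcrt* and *Pmch* are also members of the list of 19 hypothalamic markers, where 4 genes were lower with a p under 0.05 (1.55% of all genes) and none higher, the others being *Gal* and *Hdc*. In that list 8 genes lay above 0 (55.7% of all genes did). The count of lower genes ran from 2 without BACHD replicate 3 to 5 without WT replicate 2. Thalamic markers, which report on neighbouring tissue, lay above 0 in 15 of 16 genes in the same arrays (55.7% of all genes did). The part of tissue content in the differences of peptide and amine genes was not tested.

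Further peptide genes were lower with overlap. *Gal*, which encodes galanin, read 11.53, 11.49, 11.43, 11.55 and 11.45 in BACHD and 11.78, 11.46 and 12.06 in WT, where WT replicate 2 lay in the BACHD range (-0.28, SE 0.116, exact p = 0.0714). *Vgf*, the precursor of secreted peptides that act on energy balance, was lower (-0.32, SE 0.113, exact p = 0.0536). *Tac1*, which encodes substance P, was lower (-0.18, SE 0.0651), and *Nts*, the neurotensin gene, differed by -0.40 (SE 0.18, exact p = 0.125). In the list of 35 measured feeding and growth peptides and receptors, 8 had a p under 0.05 on the lower side (1.55% of all genes) and 2 on the higher side (2.39%), with a median of -0.0225 that ran from -0.0856 to 0.016 without 1 array, lowest without WT replicate 1 and highest without WT replicate 3. The 8 genes on the lower side were those named here except *Nts*. Without WT replicate 1, which read highest for *Hcrt*, *Npw*, *Hcrtr2*, *Vgf* and *Nts*, 4 genes were lower and 1 higher (1.70% and 2.89% of all genes), and without WT replicate 3 there were 5 and 3 (1.79% and 3.76%).

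The 2 genes on the higher side were *Grp* and *Nms*, both made in the suprachiasmatic nucleus, the daily pacemaker. *Grp*, the gene of gastrin-releasing peptide, read 9.11, 9.18, 9.25, 9.24 and 9.26 in BACHD and 8.87, 8.73 and 8.93 in WT, without overlap (0.37, SE 0.0595, exact p = 0.0179). *Nms*, the gene of neuromedin S, read 7.23, 6.79, 6.87, 6.97 and 6.88 against 6.34, 6.91 and 6.47, with WT replicate 2 in the BACHD range (0.37, SE 0.142, exact p = 0.0714). Clock output genes were slightly higher: *Dbp* by 0.22 (SE 0.0934), *Tef* by 0.15 (SE 0.0612) and *Nr1d2*, which represses *Arntl*, by 0.13 (SE 0.0471). *Arntl*, the gene of BMAL1, was lower (-0.13, SE 0.0546), and *Rasl11b* as well (-0.18, SE 0.0738). The suprachiasmatic and clock list thus had 5 higher and 2 lower of 26 measured genes (2.39% and 1.55% of all genes), and 22 lay above 0 (55.7% of all genes did). WT replicate 1 was the extreme WT array for *Dbp*, *Tef*, *Nr1d2*, *Nms* and *Arntl*, and without it 3 genes were higher and none lower (2.89% and 1.70% of all genes). Other single arrays moved this count too, to 2 or 3 higher genes without BACHD replicate 1, 2 or 5 or WT replicate 3 (1.53% to 3.76% of all genes). Without WT replicate 2 there were 9 higher genes (2.05%). The loss of the lower genes was not particular to WT replicate 1. None was lower without BACHD replicate 1, 3, 4 or 5 or WT replicate 3 either. There was 1 lower gene without BACHD replicate 2 and 2 without WT replicate 2. Over these settings 1.11% to 2.06% of all genes were lower. The hour of dissection is not given in the sources used here, so a shift of the clock between mice was not tested.

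**Figure D3:**
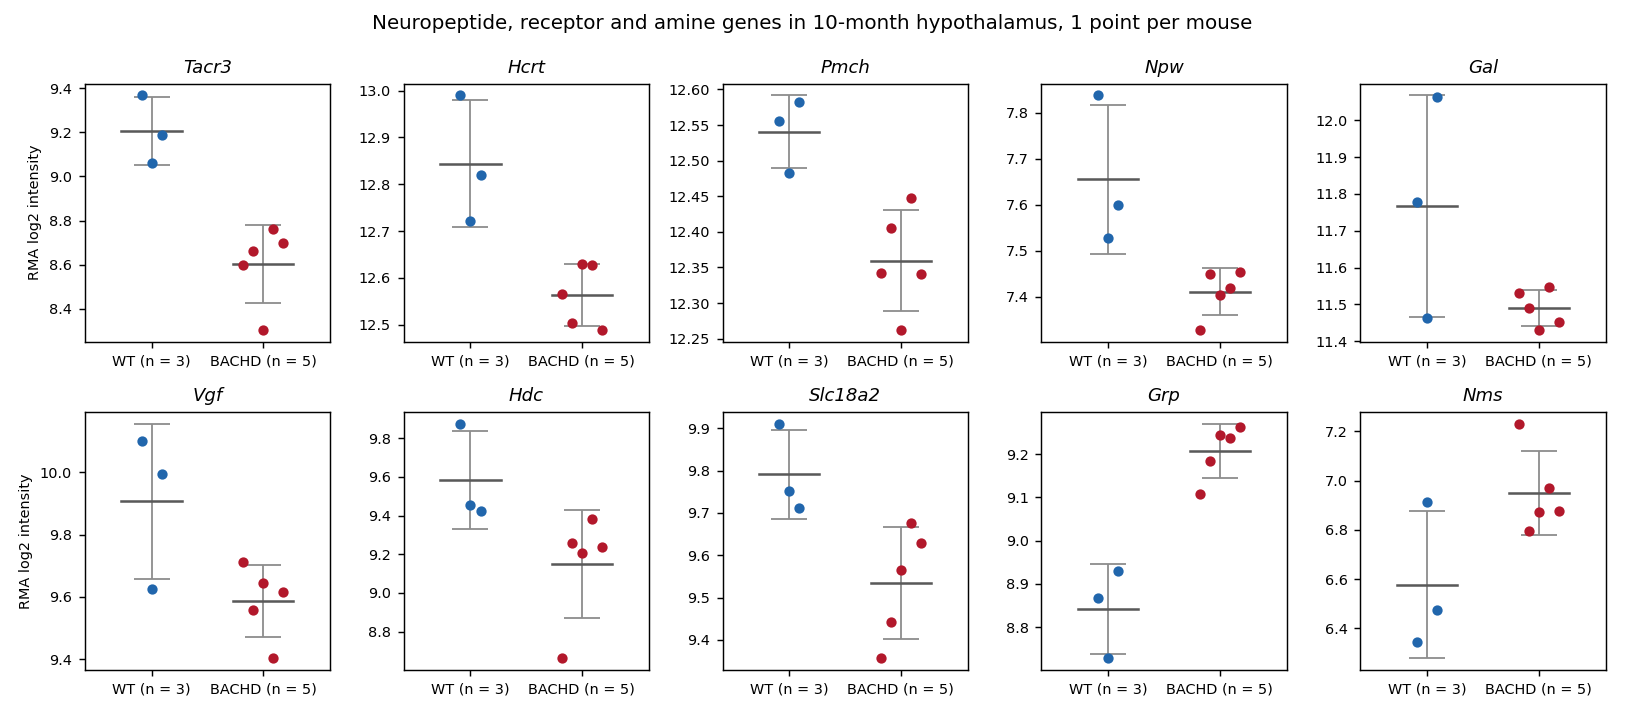
RMA log2 intensity (y axis, a separate scale per gene) of 10 neuropeptide, receptor and amine genes in WT and BACHD at 10 months, with 1 point per mouse, the group mean as a line and the SD as bars. *Tacr3*, *Hcrt*, *Pmch*, *Npw*, *Hdc* and *Slc18a2* lie lower and *Grp* higher in BACHD without overlap, while *Gal*, *Vgf* and *Nms* overlap.

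Enzymes and carriers of amine neurons were lower in 3 of 18 measured genes (1.55% of all genes) and higher in none (2.39%). *Hdc*, which makes histamine in tuberomammillary neurons, read 8.66, 9.26, 9.21, 9.38 and 9.24 in BACHD and 9.88, 9.45 and 9.42 in WT (-0.44, SE 0.172, exact p = 0.0357). *Slc18a2*, the vesicular monoamine transporter gene, read 9.36, 9.44, 9.57, 9.68 and 9.63 against 9.91, 9.75 and 9.71 (-0.26, SE 0.0843, exact p = 0.0357). Both were separate between the groups, and BACHD replicate 1 was the lowest array for each. *Th*, the rate-limiting enzyme of dopamine synthesis, was lower (-0.21, SE 0.0851, exact p = 0.0714) with overlap. Without WT replicate 1, the highest array for *Hdc* and *Slc18a2*, no amine gene had a p under 0.05 (1.70% of all genes on the lower side), and without BACHD replicate 3 there was 1 (1.75%). Of the 26 measured genes of GABA and glutamate neurons, none had a p under 0.05 (3.94% of all genes). The smallest belonged to the glutamate receptor genes *Grik3* (0.14, SE 0.0792) and *Gria3* (0.10, SE 0.0645). The neurohypophysial list held none of 12 (3.94% of all genes), with the smallest p for *Avpr1a*, a vasopressin receptor gene (-0.09, SE 0.0503), and *Scg2*, a granin gene (-0.12, SE 0.0652). For *Avp* the array that stood apart set the sign: the difference was 0.18 (SE 0.492) with and -0.22 without BACHD replicate 1.

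In the reproductive axis, *Tacr3* was the gene with the greatest lower difference of all genes. It encodes the receptor for neurokinin B, the peptide that kisspeptin neurons use among themselves. It read 8.60, 8.66, 8.30, 8.76 and 8.70 in BACHD and 9.37, 9.06 and 9.19 in WT, so that no BACHD mouse reached the lowest WT mouse, and its level was 0.659 times that of WT (-0.60, SE 0.111, exact p = 0.0179). The difference stayed between -0.67 and -0.52 when any 1 array was left out. The ligand gene *Tac2* (-0.04, SE 0.0928), *Kiss1*, the kisspeptin gene (-0.02, SE 0.0855), and *Gnrh1*, the gene of GnRH itself (0.13, SE 0.101), overlapped between the groups. *Npvf*, which encodes the peptide RFRP-3 that holds back GnRH neurons, read 8.35, 8.09, 8.60, 8.28 and 8.31 against 9.20, 8.25 and 8.66 (-0.38, SE 0.197, exact p = 0.196). The GABA receptor subunit gene *Gabre* was lower (-0.24, SE 0.0854), and with *Tac1* it completed the 3 of 17 measured genes with a p under 0.05 and a lower value (1.55% of all genes). Without WT replicate 3 there was 1 (1.79%).

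Pituitary hormone genes varied between arrays more than between genotypes. *Cga*, the subunit common to gonadotropins and thyrotropin, had the greatest mean difference of all genes, 1.66 (SE 0.9), which was 0.925 without WT replicate 1 and 2.24 without BACHD replicate 4. It read 9.29, 8.80, 10.30, 6.91 and 10.82 in BACHD and 6.10, 8.28 and 8.31 in WT, with BACHD replicate 4 below 2 of the WT mice (exact p = 0.161). *Prl*, the prolactin gene (0.26, SE 1.63), and *Gh*, the growth hormone gene (0.09, SE 0.802), were high in the same arrays, BACHD replicates 2 and 5 and WT replicate 3. *Cga* did not follow them: it was second highest in BACHD replicate 3, where *Prl* read 5.76 and *Gh* 6.68. The hormone subunit genes *Lhb* (0.17, SE 0.148), *Fshb* (0.30, SE 0.25) and *Tshb* (0.07, SE 0.112), and *Pomc*, which hypothalamic neurons also express (-0.03, SE 0.245), had overlapping groups. Thus none of 7 hormone genes had a p under 0.05 (3.94% of all genes). Among 12 measured pituitary identity genes *Rbp4*, a retinol carrier gene, did, and it was lower (-0.21, SE 0.0616), as were 1.55% of all genes. Without BACHD replicate 4, 3 of these genes were lower at that limit (1.35% of all genes). The part of pituitary tissue in *Cga* was not tested.

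Of 41 measured genes of GnRH receptor signalling, 3 were higher with a p under 0.05 and none lower (2.39% and 1.55% of all genes). These were the phospholipase gene *Plcb2* (0.20, SE 0.0661), the GTPase gene *Nras* (0.15, SE 0.0543) and the transcription factor gene *Atf4* (0.11, SE 0.0487). *Cga* and *Prkcd* are members of this list as well and had the greatest differences in it. Without WT replicate 3 none of the list passed the same limit, while 3.76% of all genes were higher and 1.79% lower.

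Thalamic markers lay above 0 in 15 of 16 measured genes (55.7% of all genes did), with a median of 0.235 against 0.00859 for all genes. The median was 0.126 without WT replicate 2, 0.155 without BACHD replicate 3 and 0.386 without WT replicate 3. *Prkcd*, protein kinase C delta, read 9.64, 9.93, 10.46, 8.22 and 9.11 in BACHD and 8.64, 7.62 and 9.28 in WT (0.96, SE 0.531, exact p = 0.196). *Ptpn3*, a phosphatase gene, was higher by 0.65 (SE 0.317), *Ramp3*, a receptor activity modifier, by 0.45 (SE 0.373), and *Tcf7l2*, a Wnt pathway factor of thalamic neurons, by 0.24 (SE 0.181), all with overlap. *Calb2*, the calretinin gene, which hypothalamic neurons express too, was the only member with a p under 0.05 (0.13, SE 0.036). The mean of the list was 9.76, 9.82, 10.09, 9.36 and 9.59 in BACHD and 9.48, 9.14 and 9.67 in WT. Without BACHD replicate 4, the array lowest in its group, 7 members were higher with a p under 0.05 (3.07% of all genes), and without WT replicate 3 there were 3 (3.76%). *Slc17a7*, the vesicular glutamate transporter gene of cortical and some thalamic neurons, was also highest in BACHD replicate 3 and lowest in WT replicate 2, at 8.66, 8.09, 8.69, 7.32 and 7.77 against 8.02, 7.15 and 7.87 (0.43, SE 0.344, exact p = 0.304). Whether the amount of thalamic tissue in the dissections plays a part in these differences was not tested.

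Genes of the vessel wall gave 2 of the smallest p values. *Angpt1*, which encodes a ligand of the endothelial receptor TIE2 that keeps vessels stable, read 7.45, 7.54, 7.44, 7.50 and 7.54 in BACHD and 7.14, 7.26 and 7.10 in WT (0.32, SE 0.0512, exact p = 0.0179). *Cd36*, a scavenger receptor and fatty acid carrier of endothelium and macrophages, read 6.46, 6.50, 6.16, 6.45 and 6.44 against 6.97, 6.90 and 6.94, which is 0.692 times the WT level (-0.53, SE 0.079, exact p = 0.0179). Both genes separated the groups by more than the range within WT. The barrier transporter genes *Slco1a4* (0.20, SE 0.0646, exact p = 0.0357) and *Abcb1a* (0.28, SE 0.105, exact p = 0.0714) were higher with BACHD replicate 4 in the WT range. The list had 3 higher and 1 lower of 23 measured genes (2.39% and 1.55% of all genes), and without BACHD replicate 4, which was the lowest array of the list mean, 7 higher and 1 lower (3.07% and 1.35% of all genes). Of 16 genes of pericytes, smooth muscle and fibroblasts none had a p under 0.05 (3.94% of all genes). The smallest belonged to the collagen gene *Col1a2* (0.11, SE 0.0647) and the proteoglycan gene *Dcn* (0.24, SE 0.151). *Alas2*, which makes heme in red blood cells, was higher by 0.34 (SE 0.103), 1 of only 2 blood genes measured. The part of blood in the tissue was not tested.

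Genes of oxidative phosphorylation, the mitochondrial chain that makes ATP, lay below 0 in 56 of 78 measured members (8823 of all 19937 genes did). The differences were small, with a median of -0.0279 and a range of -0.18 to 0.08. Only the complex I subunits *Ndufa2* (-0.15, SE 0.0552) and *Ndufs5* (-0.16, SE 0.0676) had a p under 0.05, which is 2.56% of the list against 1.55% of all genes on the lower side. None had without BACHD replicate 4 or WT replicate 1, 1 had without BACHD replicate 1 or 5 or WT replicate 3, and 3 had without BACHD replicate 3 or WT replicate 2. The median was -0.0418 without WT replicate 2, -0.015 without BACHD replicate 5, -0.0178 without WT replicate 1 and -0.0092 without WT replicate 3. In complexes II to IV the smallest p belonged to *Uqcrb* (-0.12, SE 0.0563) and *Uqcrh* (-0.11, SE 0.0542), and in ATP synthase to *Atp5k* (-0.10, SE 0.0456) and *Atp5j2* (-0.08, SE 0.0458). Cytosolic ribosomal protein genes also lay mostly below 0, in 27 of 40 (8823 of all 19937 genes did), with a median of -0.00926. Of these 40, *Rpl24* was higher with a p under 0.05 (0.22, SE 0.0927, exact p = 0.143) and none lower. The cholesterol list had none of 20 (3.94% of all genes), with the smallest p for *Dhcr7* (-0.07, SE 0.0516) and *Idi1* (0.09, SE 0.0654). The fatty acid list had 1 higher of 24 (2.39% of all genes), the acyl-CoA thioesterase gene *Acot1* (0.19, SE 0.0724). Another gene of that family, *Acot5*, read 5.54 to 5.68 in BACHD and 5.64 to 5.86 in WT (-0.09, SE 0.061, exact p = 0.179).

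Other cell types and programs gave 1 or 2 genes per direction each at the same limit. Of all genes, 2.39% passed it on the higher side and 1.55% on the lower side. *Opalin*, a myelin gene of oligodendrocytes, was higher by 0.33 (SE 0.132), with WT replicate 3 at 8.62 and the other 7 arrays at 9.21 to 9.43. Of 11 striatal markers *Penk*, the enkephalin gene, was lower, at 11.92 to 12.14 in BACHD and 12.14 to 12.39 in WT (-0.25, SE 0.0731), and so was *Tac1*, both of which hypothalamic neurons also express. *Prox1*, in the list of 13 cortex and hippocampus markers, was higher by 0.20 (SE 0.0539). In choroid plexus and ependyma the chloride channel gene *Clic6* was higher (0.14, SE 0.0535) and *Kl*, the klotho gene, lower (-0.21, SE 0.0798). The immediate early genes *Btg2* (0.27, SE 0.0958) and *Ier2* (0.18, SE 0.0761) were higher, 2 of 20 in that list (2.39% of all genes). Without WT replicate 2 there were 7 (2.05%), without WT replicate 1 none (2.89%), and without BACHD replicate 2, 3 or 5 there was 1. *Nr3c1*, the glucocorticoid receptor gene, was higher as well, at 9.67 to 9.82 against 9.51 to 9.59 (0.19, SE 0.0454). Without WT replicate 2 there were 3 higher genes in the glucocorticoid list (2.05% of all genes). Among 18 genes of huntingtin and its partners the transcription factor gene *Sp1* was higher (0.12, SE 0.0492), and among 21 chaperone and unfolded protein response genes *Atf6* (0.11, SE 0.0437) and *Atf4* were. Without BACHD replicate 2, 3 or 4 or WT replicate 3 no gene of either of these 2 lists was higher at that limit.

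**Figure D4:**
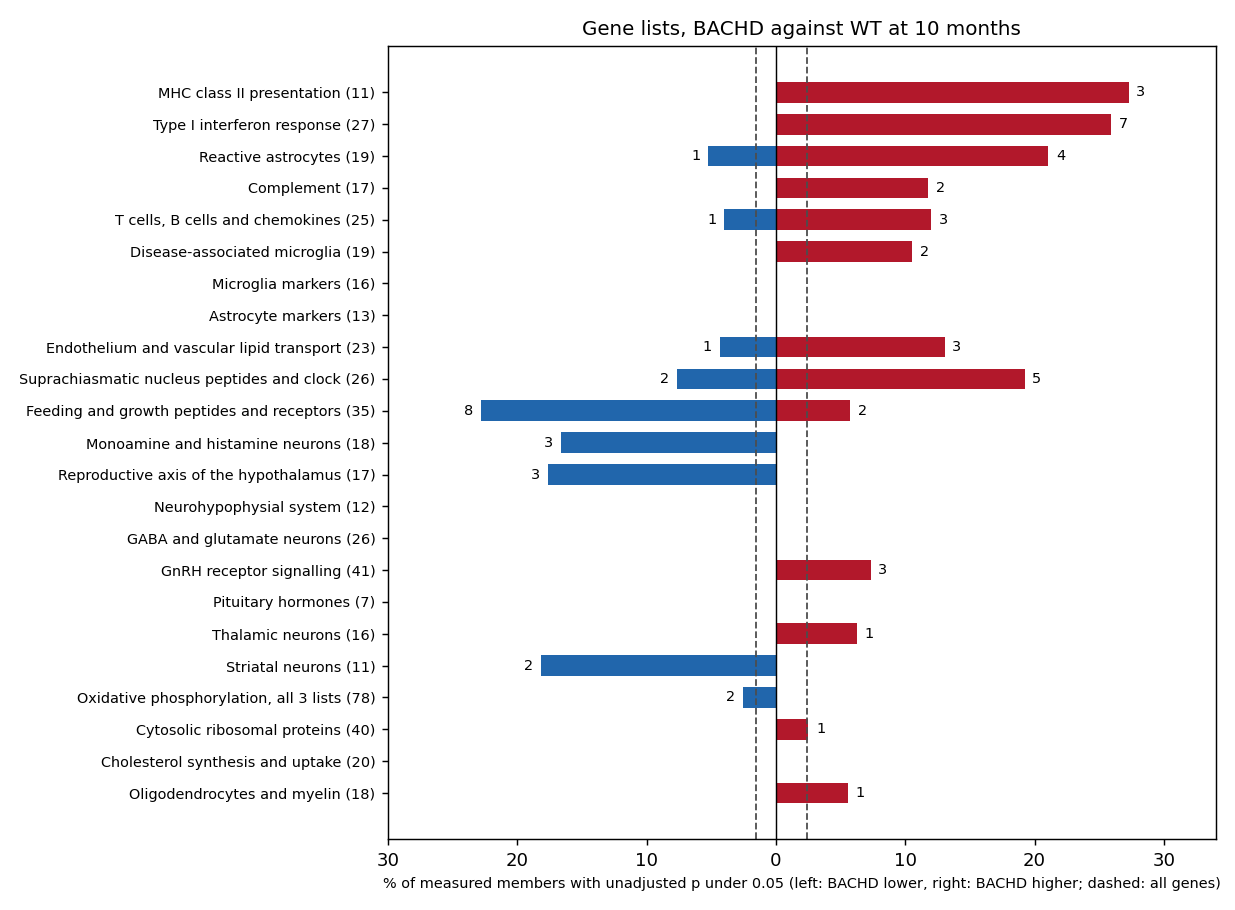
Share of the measured members of 23 gene lists (x axis, percent) with an unadjusted limma p under 0.05 for BACHD against WT at 10 months, lower to the left and higher to the right, with the number of genes at each bar and the number measured in brackets. Dashed lines mark the shares over all genes, 1.55% lower and 2.39% higher. The longest bars are class II and interferon genes to the right and feeding peptides to the left.

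The 2-month comparison of 6 BACHD and 6 WT mice gives the values of the same genes early in the disease. Many genes below were chosen by a small p or a great difference at 10 months. That choice alone makes smaller differences at 2 months, and greater differences between the ages, likely. The comparison therefore cannot tell whether a difference was absent at 2 months. Arrays of the 2 ages were normalized apart, so differences within each age were compared and levels were not. No probe set passed an adjusted p of 0.05 at 2 months (0.00%, smallest adjusted p 0.841) or for the difference between the ages (0.00%). At 2 months 564 genes had an unadjusted p under 0.05 (2.83%), 126 of them higher (0.632%) and 438 lower (2.20%) in BACHD. For the difference between the ages, 10 months minus 2 months, 909 probe sets (2.62%) and 443 genes (2.22%) passed the same limit, and of these genes 347 were above 0 (1.74%) and 96 below (0.482%). Every gene described here has an adjusted p of 0.9996 for that difference.

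*Lcn2*, higher by 1.0 at 10 months, differed by -0.10 (SE 0.0662) at 2 months, which leaves a difference between the ages of 1.10 (SE 0.218). *Cd74* differed by 0.05 (SE 0.0902) at 2 months and *H2-Aa* by 0.09 (SE 0.128), so that the ages differed by 0.95 (SE 0.229) and 0.64 (SE 0.26). *Spx* differed by -0.07 (SE 0.0547) and *Ly6g* by -0.09 (SE 0.0864) at 2 months, against 0.46 and 0.48 at 10 months. The 2-month differences of these 5 genes were all within 0.10 of 0. *Oasl2* (0.05, SE 0.0736) and *Xaf1* (-0.13, SE 0.0913) were near 0 at 2 months as well, and *Ifit3* was lower at 2 months (-0.24, SE 0.0999) and higher at 10. *C4b* was higher by 0.17 (SE 0.137) at 2 months, and its difference between the ages was 0.46 (SE 0.202).

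Peptide genes differed among themselves in young BACHD mice. *Hcrt* differed by 0.10 (SE 0.0753), *Penk* by 0.08 (SE 0.0626) and *Vgf* by 0.12 (SE 0.0786) at 2 months, and the differences between the ages were -0.38 (SE 0.11), -0.33 (SE 0.0966) and -0.44 (SE 0.136). *Pmch* differed by -0.13 (SE 0.0636) at 2 months, with a difference between the ages of -0.05 (SE 0.0878). *Nts* (-0.08, SE 0.126), *Tac1* (-0.05, SE 0.161) and *Pomc* (-0.21, SE 0.187) lay below 0 at 2 months as well. *Npvf* was higher by 0.34 (SE 0.135) at 2 months and differed by -0.38 at 10 months. *Fabp7* had opposite signs too, 0.33 (SE 0.118) at 2 months and -0.35 at 10 months, while *Car2* differed by 0.08 (SE 0.0769) at 2 months. *Acot5* was higher by 0.33 (SE 0.103) at 2 months and near 0 at 10 months. For *Tacr3* and *Grp* the sign was the same at both ages: *Tacr3* differed by -0.40 (SE 0.0842) and *Grp* by 0.33 (SE 0.126) at 2 months, with differences between the ages of -0.20 (SE 0.141) and 0.04 (SE 0.172). The *Tacr3* and *Grp* values at 2 months come from other mice than those at 10 months. The median difference of the thalamic markers was -0.229 at 2 months and 0.235 at 10 months. That of the 78 oxidative phosphorylation genes was -0.0284 and -0.0279, and that of all genes -0.0268 and 0.00859. At 2 months 9 of these 78 genes were lower with a p under 0.05 (2.20% of all genes).

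**Figure D5:**
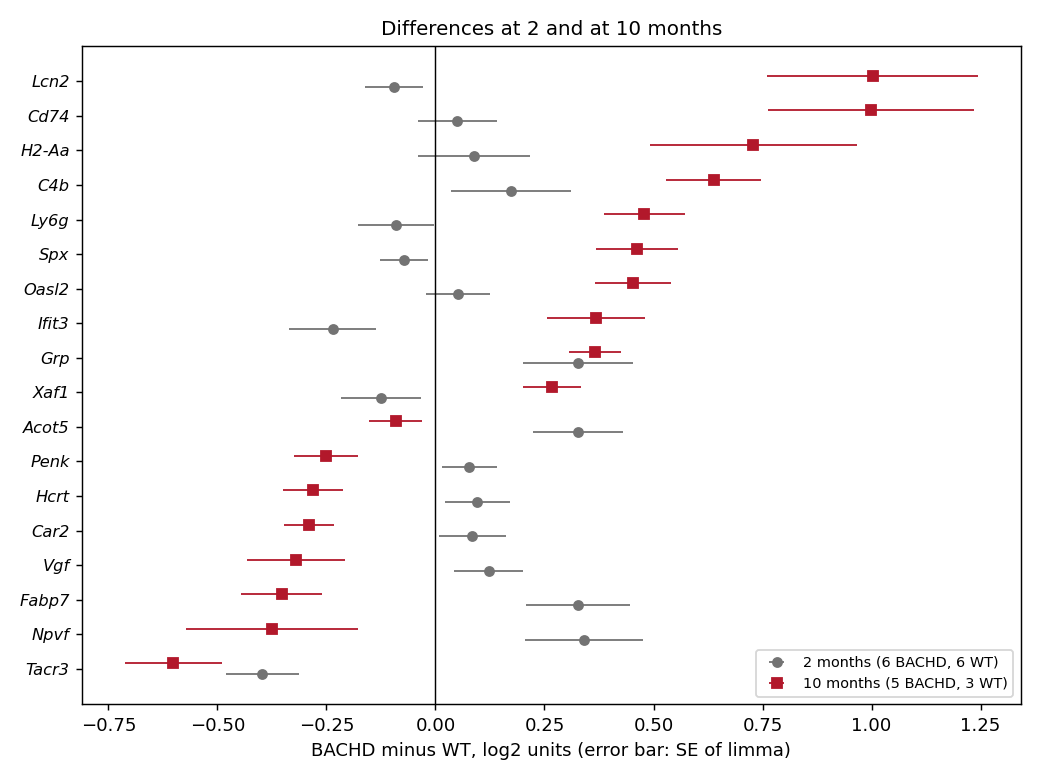
BACHD minus WT difference in log2 units (x axis) of 18 genes at 2 months (circles, 6 BACHD and 6 WT) and at 10 months (squares, 5 BACHD and 3 WT), with the SE of limma as bars. *Lcn2*, *Cd74* and *H2-Aa* lie to the right at 10 months and near 0 at 2 months, *Tacr3* lies to the left and *Grp* to the right at both ages, and *Fabp7* and *Npvf* change side.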

How the data were processed

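Hypothalamic RNA of each mouse was hybridized to an Affymetrix Mouse Gene ST array. The authors read the arrays with ReadAffy and deposited log2 intensities from RMA, which corrects background, equalizes the quantiles of the arrays and summarizes probes by median polish (affy 1.70.0, R 4.1.1). No probe set was filtered, and no value of these arrays is identical, to the last decimal, with one of the other ages and models (5 to 22 are per pair among themselves), which is how separate RMA runs were recognized. RMA compresses small intensities, and the number of mice limits the precision. Groups came from the array labels. Gene symbols were taken from the platform annotation, where 1321 probe sets carry several symbols and 11799 have no entry.

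limma 3.58.1 (lmFit, eBayes, R 4.3.3) was fitted to the 8 arrays with 1 mean per group (the authors used limma 3.48.3 with WT as the reference level), and the Benjamini-Hochberg adjustment covered the 34760 probe sets. The difference between the ages was a contrast over 20 arrays. Exact permutation tests used all 56 splits. The limma script was tested on simulated data. Named were the 10 genes with the smallest p and the greatest difference in each direction, the genes the study names here, and list members with a p under 0.05, or else the 2 with the smallest p. Of 814 genes in the lists, 711 were measured. Genes, lists and tests were chosen with earlier results of these data known. The 13 mitochondrially encoded genes were not analysed here. Alternatives were array centring, a filter on low levels, moderation with trend, array weights, ordinary least squares without moderation, a replicate block, the mean over a gene's probe sets, fits over more arrays and leaving out each array. RefSeq promoters of the interferon genes were searched for runs that they share, not for the known letters of a motif.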

Additional observations from a re-analysis of the deposited data

Results flagged for a closer look

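In each of 189 groups of 5 BACHD values (150 genes and 39 list means), the array farthest from the rest was compared with the range of the group, and 19 groups had an array farther out than Dixon's 95% limit of 0.71. Chance gives about 1 in 20. The 3 WT arrays are too few for this test, and no difference between the ages met a rule for a closer look.

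BACHD replicate 1 stood above the others for *Avp* (12.02 against 9.862 to 10.19) and for *Sst* (12.64 against 12.2 to 12.32). It was above them for the mean of the hypothalamic markers (9.666 against 9.356 to 9.402) and of the neurohypophysial genes (8.979 against 8.587 to 8.628). It stood below the others for *Hdc* (8.663 against 9.206 to 9.381) and *Nr1d2* (10.71 against 10.78 to 10.8). BACHD replicate 2 was high for *Gh* (9.642 against 6.676 to 7.476).

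BACHD replicate 3 was low for *Serpina3n* (12.66 against 12.77 to 12.8) and for *Cd36* (6.16 against 6.441 to 6.502). It was high for *Prox1* (9.635 against 9.457 to 9.495), *Dhcr7* (9.999 against 9.829 to 9.851) and *Col1a2* (7.968 against 7.825 to 7.856).

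BACHD replicate 4 was low for *Ptx3* (5.019 against 5.127 to 5.165), *Slco1a4* (7.592 against 7.756 to 7.815), *Bcl3* (7.312 against 7.587 to 7.605) and the microglial gene *Siglech* (8.286 against 8.378 to 8.404). Its list means were low for endothelium (8.235 against 8.437 to 8.509), for pericytes, smooth muscle and fibroblasts (7.627 against 7.811 to 7.861) and for T cells, B cells and chemokines (6.394 against 6.574 to 6.612). No cause of these values was tested.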

How the results depend on the processing

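The count of probe sets with an adjusted p under 0.05 was 0 in every alternative except 1 fit over all 38 arrays, which gave 3 (*Lcn2*, adjusted p = 0.00191; *Tacr3*, 0.00869; *Spx*, 0.00869, by limma). That fit takes the spread from all models and ages. The count at an unadjusted p under 0.05, 1583, became 939 among the 17380 probe sets at or above the median level, 2493 with array weights, 636 in a fit over both ages and 800 over all arrays. It ran from 1331 to 2532 without 1 array, highest without WT replicate 3, and was 1540 with centring, 1617 with trend and 1651 without moderation. The replicate block gave 1410. Deviations of equal replicate numbers correlated at -0.16, -0.00221 and 0.0924, and those of unequal numbers at -0.311 to 0.198. So few pairs cannot tell whether the numbers pair the mice, and they were treated as names only. For the difference between the ages, 909 became 458 with the filter and 1501 with array weights, and 679 to 998 without 1 array, with an adjusted count of 0 throughout.

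Of 150 genes, 134 kept their sign in every alternative. Array weights turned *H2-Eb2* (0.0259) and *Kiss1* (0.00052), and the replicate block turned *H2-Eb2* (0.0821), *Kiss1* (0.000482), *Ifi30* (0.00577), *Tmem119* (0.0187), *Pomc* (0.0692) and *Tshb* (-0.00101). Centring turned the difference between the ages of *Grp* (-0.019). Without 1 array at a time, that value ran from -0.0174 to 0.0839, and 14 genes spanned 0: *Avp* from -0.223 to 0.332, *Cx3cr1* from -0.0086 to 0.0501, *Fezf1* from -0.312 to 0.94, *Gfap* from -0.0469 to 0.199, *Gh* from -0.457 to 0.857, *H2-Eb2* from -0.107 to 0.0246, *H2-Ob* from -0.0119 to 0.0453, *Ifi30* from -0.0755 to 0.000427, *Kiss1* from -0.106 to 0.083, *Nr0b1* from -0.0845 to 1.02, *Pomc* from -0.377 to 0.19, *Prl* from -0.683 to 1.91, *Sst* from -0.283 to 0.00477 and *Tac2* from -0.163 to 0.0448. The causes were not tested. With 3 WT mice, each WT array carries much of every difference.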
